A study of Mus musculus with 10 samples.

Results

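Immediate early genes are genes whose mRNA appears within minutes of a stimulus to a cell and is lost soon afterwards. The 10 described here were chosen by name: Fos, Fosb, Jun, Junb, Egr1, Ier2, Atf3, Zfp36, Nr4a1 and Btg2, of 20009 genes with at least 1 count in the series. Their transcripts were read in 10 mouse libraries, each from whole muscle: soleus and TA of 3 male and 2 female mice. TA is the tibialis anterior, a fast muscle at the front of the shin, and soleus is a slow muscle of the calf. All mice were wild type. Strain, age, treatment, collection order and batch are not given in the sources used here. A soleus and a TA library with the same sex and number come from the same mouse, by the animal number that both carry. Male mice are numbered 1 to 3 and female mice 1 to 2, so that TA female 1 is the TA of the first female mouse.

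The proteins fall into 3 kinds. Fos, Fosb, Jun, Junb and Atf3 are leucine zipper proteins that pair to form the AP-1 family of transcription factors. Egr1, a zinc finger protein, and Nr4a1, an orphan nuclear receptor, are transcription factors of other families. Zfp36 binds AU-rich messages and speeds their decay, Btg2 binds the deadenylase complex that shortens poly(A) tails, and Ier2 is a small nuclear protein. Transcription of these genes is switched on through factors already present in the cell, among them the serum response factor SRF, which binds CArG boxes, and CREB, which binds cyclic AMP response elements. In skeletal muscle, contraction, stretch, injury and handling of tissue are all known to raise immediate early mRNA.

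The 250 bases upstream of the RefSeq transcription start are shown for the 4 members with the most counts, Jun (4409 counts over the 10 libraries), Fos (2120), Junb (1864) and Btg2 (1640), because most of what follows rests on those 4 genes. The sequences are from RefSeq on GRCm38.p6, run 5′ to 3′ on the strand of the gene and end at the base before the start. Fos lies at chr12:85473640-85473889 on the plus strand, and the other windows are on the minus strand, Jun at chr4:95052223-95052472, Junb at chr8:84978749-84978998 and Btg2 at chr1:134079156-134079405. Capitals mark matches on either strand to the full cyclic AMP response element TGACGTCA, its shorter form TGACGT, the AP-1 site TGANTCA, the EGR site GCGNGGGCG, the TATA box TATAAA and the CArG box. The shorter form overlaps the full element.
Fos: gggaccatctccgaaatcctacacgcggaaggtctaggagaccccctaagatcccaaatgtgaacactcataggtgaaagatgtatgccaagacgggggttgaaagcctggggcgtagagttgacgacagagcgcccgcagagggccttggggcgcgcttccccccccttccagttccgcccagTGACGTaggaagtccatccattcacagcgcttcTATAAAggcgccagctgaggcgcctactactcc
Jun: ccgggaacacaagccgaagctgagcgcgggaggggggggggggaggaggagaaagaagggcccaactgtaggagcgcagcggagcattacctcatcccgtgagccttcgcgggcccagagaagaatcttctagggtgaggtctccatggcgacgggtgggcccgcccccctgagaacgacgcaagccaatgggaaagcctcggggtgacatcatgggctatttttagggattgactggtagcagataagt
Junb: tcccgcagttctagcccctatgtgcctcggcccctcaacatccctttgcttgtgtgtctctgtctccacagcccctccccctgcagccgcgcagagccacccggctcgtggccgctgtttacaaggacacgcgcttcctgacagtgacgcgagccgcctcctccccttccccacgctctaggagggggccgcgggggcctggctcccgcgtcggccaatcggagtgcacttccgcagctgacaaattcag
Btg2: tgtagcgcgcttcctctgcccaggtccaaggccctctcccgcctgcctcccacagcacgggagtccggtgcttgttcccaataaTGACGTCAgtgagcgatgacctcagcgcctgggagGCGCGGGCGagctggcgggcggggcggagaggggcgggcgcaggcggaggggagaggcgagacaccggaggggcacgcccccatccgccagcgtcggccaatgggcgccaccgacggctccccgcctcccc

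The Fos window held the shorter element at 66 to 61 bases before the start and a TATA box at 33 to 28 bases before it. The Btg2 window held the full element, 166 to 159 bases before the start, and an EGR site at 131 to 123. None of the 6 motifs was found in the Jun and Junb windows, which says only that those letters are not there. Among all 32851 promoters of that length in the table, the full element was found in 1.55%, the shorter form in 6.47%, the AP-1 site in 6.75%, the CArG box in 1.47%, the EGR site in 4.70% and the TATA box in 12.4%. Of the other members with an entry, the Atf3 window held the shorter element, the Fosb and Nr4a1 windows an EGR site, and the Zfp36 window an EGR site and a CArG box. A match of letters is a description and not a measured binding site. Egr1 and Ier2 had no entry.

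The libraries held 726414 to 961844 counts, and the 10 genes together 267 to 3321 of them. Soleus female 2 stood apart from the rest: 22862 transcripts had a count there, against 14993 to 16575 in the other 9 libraries. The labelled muscles matched their fibre markers in every library: summed over 5 slow-fibre genes, levels were 4538 to 5482 counts per 1000000 (CPM) in soleus and 0 to 3.83 in TA, and over 5 fast-fibre genes 181 to 1143 in soleus and 22659 to 35791 in TA. Of the Y-linked genes examined, Ddx3y had 6 to 20 counts in every male library and 0 in every female one. Eif2s3y had 3 to 12 counts in the male libraries and, among the female ones, 1 in soleus female 1. Kdm5d had 92 counts in soleus female 2, 6 to 11 in the other female libraries and 9 to 23 in the males. Uty was also highest in soleus female 2, at 18 counts against at most 6 in any other library. The X-linked Xist had none anywhere. CPM here divide by the counts that matched a gene in that library, without further scaling. In bulk muscle, fewer cells of a type and less RNA per cell cannot be told apart.

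The immediate early genes took their largest shares of counts in 3 of the 10 libraries. The 10 genes together took 0.370% of the counts in TA female 2, 0.338% in soleus female 2 and 0.238% in TA female 1. In the other 7 libraries they took 0.0296% to 0.0503%, and soleus female 1, at 0.0503%, was in that range with the 6 male libraries. For 9 of the 10 genes those 3 libraries were the 3 highest; the exception was Nr4a1, for which TA male 1 took the place of soleus female 2. Among the 9 genes that could be tested (all but Fosb), 8 had this order, against 3.54% of all 5115 genes tested. That share is given as background alone: the order was read from these same values, and Egr1, Atf3 and Zfp36 reached the level needed for testing in no other library. The highest library was TA female 2 for 6 genes, TA female 1 for Fosb and Nr4a1, and soleus female 2 for Fos and Atf3. The 2 muscles of female 2 were thus both high, and those of female 1 were split.

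**Figure D1:**
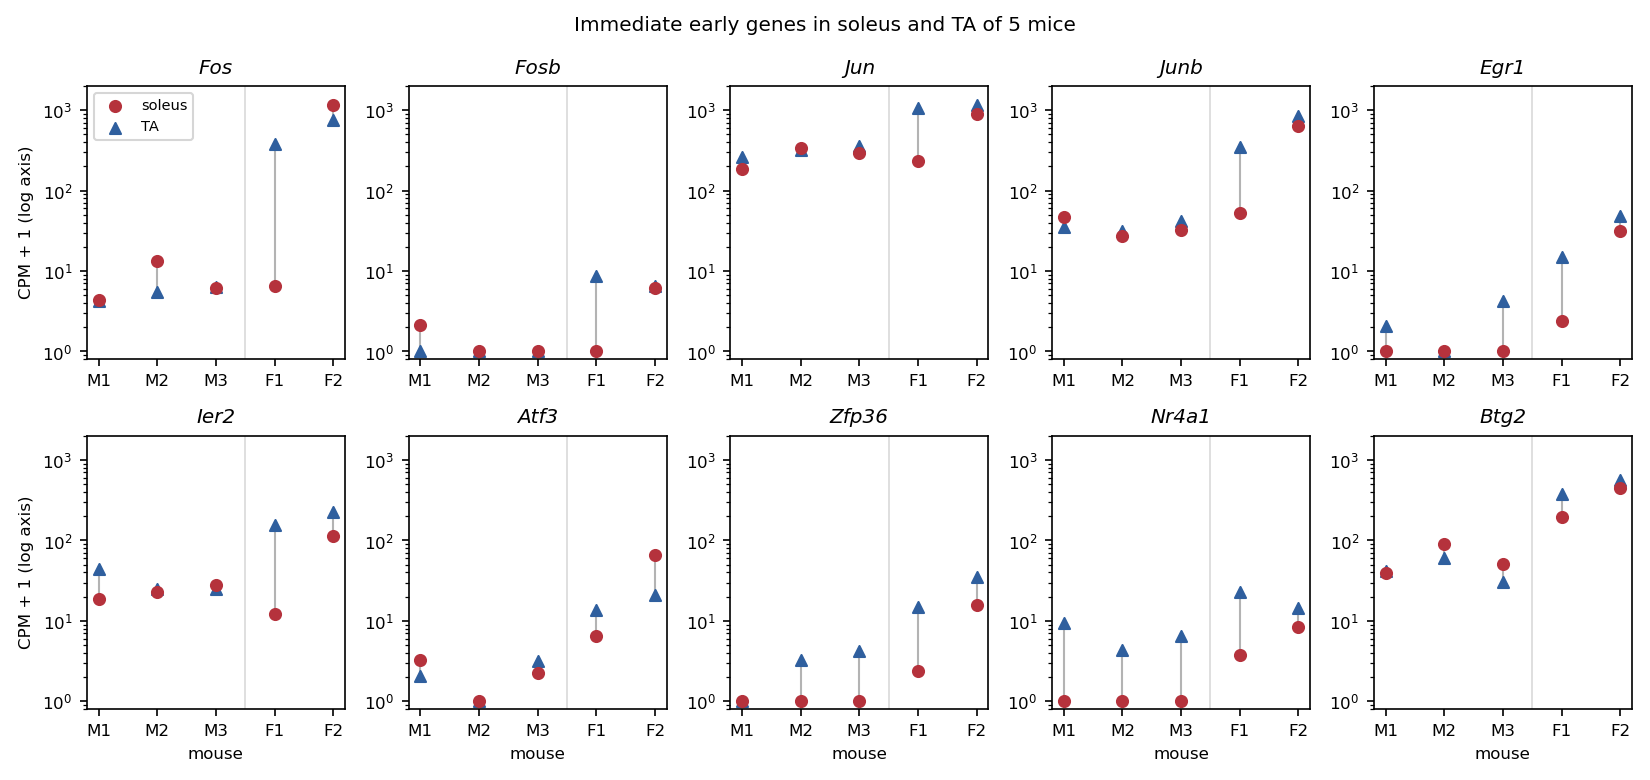
CPM of the 10 immediate early genes in soleus and TA, on a log axis, with the 3 male (M) and 2 female (F) mice along the x axis; each point is 1 library. For most genes TA female 1 and both muscles of female 2 sit above the male libraries, while soleus female 1 sits among them.

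Fos, on chromosome 12 (chr12:85473890-85477273, plus strand), encodes the partner that Jun proteins need for the classical AP-1 dimer. Its level in soleus was 3.32, 12.4 and 5.09 CPM in males 1 to 3, 5.51 in female 1 and 1157 in female 2. In TA it was 3.19, 4.52 and 5.40 CPM in the males, 384 in female 1 and 752 in female 2. The 7 low libraries held 3 to 9 Fos counts each, and the 3 high ones 301, 675 and 1112. The high and low libraries did not divide by muscle, and the soleus and TA values overlapped. Fos had the widest spread of the 9 tested members, with an SD of 3.17 over the 10 libraries on the log2 scale, larger than in 99.8% of the genes tested. That share is background alone, since Fos reached the level needed for testing only in the 3 high libraries and 1 male library.

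Within female 1, Fos was 69.7-fold higher in TA than in soleus (95% counting interval 26.9 to 257). Within female 2 it was 1.54-fold higher in soleus than in TA (1.40 to 1.70). The muscle with more Fos therefore differed between the female mice, by more than counting error in each. Each mouse is 1 pair of libraries, so these ratios carry no replicate error.

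Fosb, a close relative of Fos (chr7:19302696-19310051, minus strand), was barely measured, with 17 counts in all. There were 5 counts in soleus female 2, 6 in TA female 1, 5 in TA female 2 and 1 in soleus male 1, and none in the other 6 libraries. The 3 libraries with more than 1 count were the same 3 in which Fos was high. Of the 17 counts, 16 fell on a transcript annotated as a retained intron, and the main coding transcript has only 10 of its 3752 31-base words to itself, so its reads may not have been assigned.

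Jun, the most heavily counted member (chr4:95049034-95052222, minus strand), was expressed in every library. In soleus it stood at 186, 339 and 291 CPM in the males, 230 in female 1 and 902 in female 2. In TA it stood at 258, 320 and 353 CPM in the males, 1049 in female 1 and 1176 in female 2. The 3 highest libraries again stood apart, but from a higher base than for Fos, and soleus female 1 was lower than 2 of the 3 male soleus libraries. Jun had the narrowest spread of the 9 tested members, an SD of 0.93 on the log2 scale.

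Junb, a Jun protein that weakens many AP-1 targets (chr8:84974484-84978718, minus strand), had a lower base and a steeper step. Its soleus levels were 46.5, 26.1 and 31.8 CPM in the males, 51.0 in female 1 and 629 in female 2. Its TA levels were 34.1, 30.5 and 41.0 CPM in the males, 349 in female 1 and 852 in female 2. The 6 male libraries lay within 26.1 to 46.5 CPM with both muscles mixed together. In female 1, TA exceeded soleus 6.86-fold (counting interval 4.85 to 9.95).

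Atf3, a stress-induced member of the same leucine zipper class (chr1:191170296-191218039, minus strand), had 0 to 2 counts in each male library and 101 in all. Its level was 5.51 CPM in soleus female 1, 65.5 in soleus female 2, 12.8 in TA female 1 and 20.05 in TA female 2. Like Fos, it was higher in soleus than in TA within female 2, 3.27-fold (counting interval 1.91 to 5.87). Those were the only members of the 10 higher in soleus in that mouse.

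Egr1 and Nr4a1 had few counts, 88 and 54 over the 10 libraries. Egr1, on chromosome 18, had no counts in any male soleus library and 1, 0 and 3 counts in the male TA libraries. In the female libraries it had 1 count in soleus and 11 in TA of female 1, and 29 in soleus and 43 in TA of female 2. The highest of these, TA female 2, corresponds to 47.9 CPM.

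Nr4a1 (chr15:101254269-101274795, plus strand) differed from the other members in its order of libraries. It had 0 counts in all 3 male soleus libraries and 8, 3 and 5 counts in the male TA libraries, which are 8.51, 3.39 and 5.40 CPM. In soleus it had 2.75 CPM in female 1 and 7.28 in female 2, and in TA 21.7 and 13.4 CPM. TA was above soleus in 5 of 5 mice, although the groups overlapped, since TA male 2 and TA male 3 lay below soleus female 2. In male 2 this rested on 3 counts against 0. In female 2 the ratio was 1.84, with a counting interval (0.666 to 5.50) that includes 1. Over the males, 0 counts against 16 put soleus at least 4.69-fold lower, from a floor of 3 counts over the group. Its main transcript has 27 of 2447 31-base words to itself, so its low level cannot be compared with that of other genes.

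Ier2 (chr8:84661331-84662852, minus strand) was the member with its lowest value in soleus female 1. Its soleus levels were 17.7, 22.0 and 26.7 CPM in the males, 11.02 in female 1 and 112 in female 2. In TA the males had 42.6, 23.7 and 23.8 CPM, female 1 had 154 and female 2 had 226. TA exceeded soleus 14.0-fold in female 1 (counting interval 6.88 to 33.2) and 2.01-fold in female 2 (1.59 to 2.57).

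Btg2 (chr1:134075170-134079120, minus strand) had all 4 female libraries at the top of its order. In Junb and Atf3, too, soleus female 1 lay above every male library, at 51.0 against at most 46.5 CPM and 5.51 against at most 2.22 CPM. In soleus the males had 38.8, 89.3 and 49.6 CPM, female 1 had 194 and female 2 had 454. In TA the males had 40.4, 59.9 and 29.2 CPM, female 1 had 374 and female 2 had 571. Within each female mouse TA was the higher, 1.92-fold in female 1 (1.57 to 2.37) and 1.26-fold in female 2 (1.11 to 1.43).

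Zfp36 (chr7:28376784-28380253, minus strand) had 62 counts in all. It had none in the male soleus libraries, 0 to 3 counts in each male TA library, and 1 count in soleus female 1. The 3 other female libraries had 14.6 CPM in soleus female 2, 14.0 in TA female 1 and 34.5 in TA female 2.

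The study's design compares soleus with TA, and edgeR's quasi-likelihood test with sex as a covariate called 22.0% of the 5115 genes tested at an adjusted p under 0.05. Of the 9 members tested, 1 was called, a share below that background. Nr4a1 fell by 2.30 on the log2 scale in soleus (SE 0.64, edgeR adjusted p = 0.0208). It had been admitted to testing by TA female 1 and TA female 2 alone, the only libraries where it reached the level required, so the call is conditional on high TA values. With the mouse as a block it was again the member called (log2 change -2.26, adjusted p = 0.0293), and without TA female 1 it was not called (adjusted p = 0.0618).

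For the other 8 members, the differences between muscles did not pass the test. The log2 changes, positive where soleus is higher, were 0.37 for Fos (SE 0.93), 1.14 for Atf3 (0.75) and 0.05 for Btg2 (0.31). Negative values were found for Junb (-0.31, SE 0.53), Jun (-0.46, 0.32), Egr1 (-0.94, 0.82), Ier2 (-0.94, 0.46) and Zfp36 (-1.58, 0.76). The median over the 9 was -0.46, against 0.01 over all genes tested.

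The direction for Fos depended on which female soleus library was kept. Without soleus female 2 its log2 change was -3.07, and without soleus female 1 it was 0.99, which was called (edgeR adjusted p = 0.0420). With the mouse as a block it was -0.79. Atf3 likewise moved from -0.83 without soleus female 2 to 1.77 without soleus female 1, where it was called (adjusted p = 0.0270). Without soleus female 2, Egr1, Ier2 and Zfp36 were also called lower in soleus (adjusted p = 0.0111, 0.0424 and 0.0119), when the soleus libraries left held 1 count of Egr1 and 1 of Zfp36.

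Among the male mice no member that could be tested passed between muscles, and Nr4a1, with 0 counts in male soleus, had too few counts there for the test. In the 6 male libraries alone 4 members could be tested, and edgeR called 0 of them, with 0 at an unadjusted p below 0.05: the log2 changes were -0.26 for Jun, -0.05 for Junb, -0.51 for Ier2 and 0.38 for Btg2. This comparison was added after the values of the female libraries had been seen. Pooled over the males, the soleus to TA ratio was 1.01 for Junb (counting interval 0.745 to 1.36) and 1.52 for Fos (0.673 to 3.51).

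**Figure D2:**
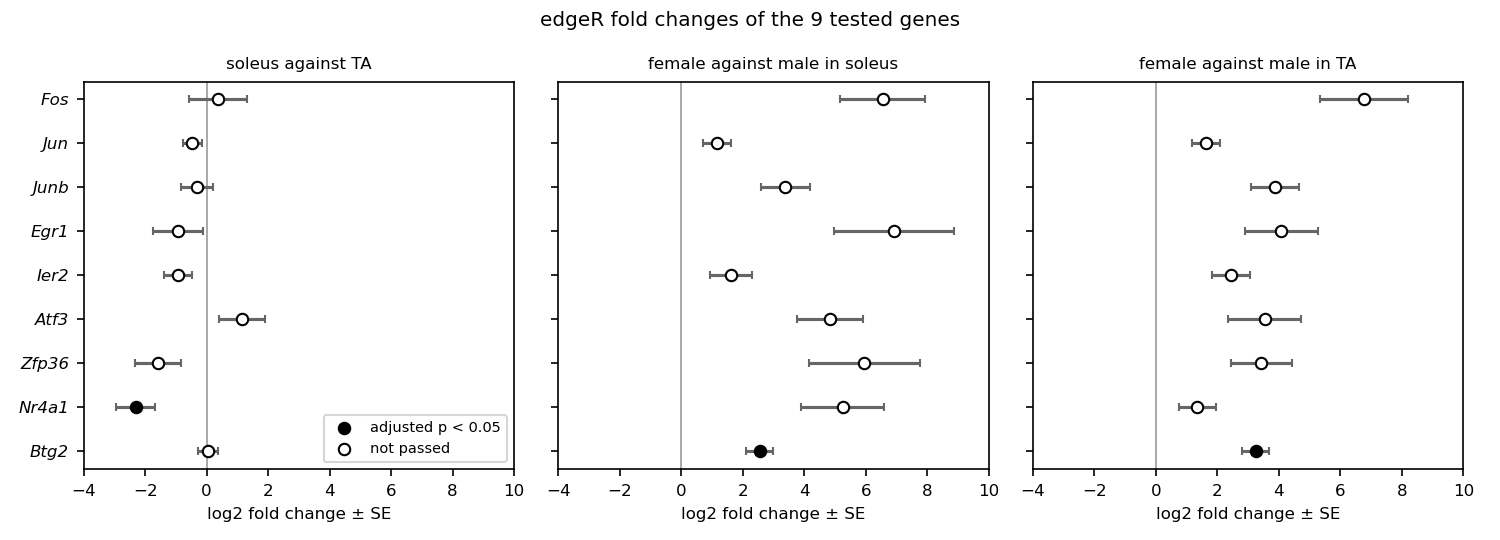
Log2 fold changes from edgeR, with SE, for the 9 tested members in 3 comparisons; filled points passed an adjusted p of 0.05. In soleus the points for Egr1, Zfp36 and Nr4a1 rest on male groups at 0. Nr4a1 is the call between muscles, Btg2 the call between the sexes in each muscle.

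Between the sexes, the fitted means of the 9 tested members lay higher in females in both muscles, but few passed the test. For Fos, Egr1, Atf3, Zfp36 and Nr4a1 nothing is read from that direction, since they were tested because of their female libraries. In soleus the direction for Jun and Ier2 rested on soleus female 2. In soleus edgeR called 0.547% of the 5115 genes, and 1 of the 9 members. Btg2 rose by 2.55 on the log2 scale in female soleus (SE 0.44, adjusted p = 0.0319). In TA edgeR called 0.645% of genes, and again 1 member: Btg2 rose by 3.24 (SE 0.45, adjusted p = 0.0128). In both muscles the 2 female libraries lay above all 3 male ones.

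Each Btg2 call was lost when some libraries were left out. In soleus it was lost without soleus male 1, soleus male 2, soleus male 3, TA male 1 or soleus female 2, with adjusted p of 0.140, 0.0915, 0.138, 0.0700 and 0.124. In TA it was lost without TA male 1, TA male 2, TA male 3 or TA female 2, with adjusted p of 0.0655, 0.0613, 0.0577 and 0.0532. Over all alternatives Btg2 stayed higher in females, by 1.68 to 3.00 in soleus and 2.89 to 3.50 in TA on the log2 scale.

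For the other members the fold was often larger and its error larger still. In TA the fitted log2 changes were 6.76 for Fos (SE 1.43, edgeR adjusted p = 0.0616), 3.87 for Junb (0.78, 0.0539), 2.44 for Ier2 (0.61, 0.111) and 1.63 for Jun (0.45, 0.163). In both TA libraries of females every one of the 9 members lay above all 3 male TA libraries, against 28.9% of the genes tested. Nothing is read from that count for Fos, Egr1, Atf3, Zfp36 and Nr4a1, which were tested only because their female libraries were high. Ratios of pooled CPM lack the scaling used in the fit, so they differ from the fitted folds, and they carry counting error only. By these ratios Fos was 133-fold higher in female TA (75.8 to 258), Egr1 22.1-fold (8.14 to 83.9), Atf3 15.3-fold (4.71 to 78.4) and Nr4a1 2.96-fold (1.56 to 5.84).

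In soleus the 2 female libraries disagreed. There the log2 changes were 6.55 for Fos (SE 1.38, edgeR adjusted p = 0.0596), 3.39 for Junb (0.78, 0.0689), 1.62 for Ier2 (0.67, 0.265) and 1.17 for Jun (0.46, 0.232). Atf3, with 3 counts in male soleus, was 31.99-fold higher by pooled counts (10.5 to 159) and was not called (adjusted p = 0.0616). Both female soleus libraries lay above all 3 male ones for 6 of the 9 members, against 13.6% of genes, and the 3 exceptions were Fos, Jun and Ier2. Nothing is read from that count for Egr1, Atf3, Zfp36 and Nr4a1, which reached the level needed for testing in no male library. For Egr1 and Zfp36, soleus female 1 lay above the males on 1 count against 0. With soleus female 2 left out, the log2 change of Fos was -0.32, of Jun -0.29 and of Ier2 -1.05, and none of the 9 was called. With soleus female 1 left out all 9 were called. Either omission leaves female soleus with 1 library, which is then assumed to vary as the other groups do.

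Egr1, Zfp36 and Nr4a1 had no counts in male soleus, so only a lower bound can be given for them. From a floor of 3 counts over the 3 male libraries, they were at least 14.3-fold, 7.16-fold and 4.30-fold higher in female soleus. Soleus female 2 held 29 of the 30 Egr1 counts, 14 of the 15 Zfp36 counts and 7 of the 9 Nr4a1 counts behind these bounds, and without it all 3 genes are below the floor in female soleus as well, so that no fold can be given. The median log2 change over the 9 members was 4.83 as fitted and 2.84 with those 3 genes at their bounds, against 0.02 over all genes. Egr1, Atf3, Zfp36 and Nr4a1 reached the 11.2 CPM needed for testing in no male library, and Fos in 1. Those 5 were thus tested because of their female libraries, and only Jun, Junb, Ier2 and Btg2 reached it in all 6 male libraries.

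Whether the muscle difference itself differed between the sexes was tested with an interaction term, and edgeR called 0.0% of the 5115 genes and 0 members. Before adjustment, p was under 0.05 for 351 genes and 1 member, and DESeq2 called 6 genes and 0 members. That 1 member was Nr4a1. Without soleus female 2, 1 member was called: Fos, with a log2 difference of -7.07 (edgeR adjusted p = 0.0110), where female soleus is 1 library whose spread is taken from the other groups.

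**Figure D3:**
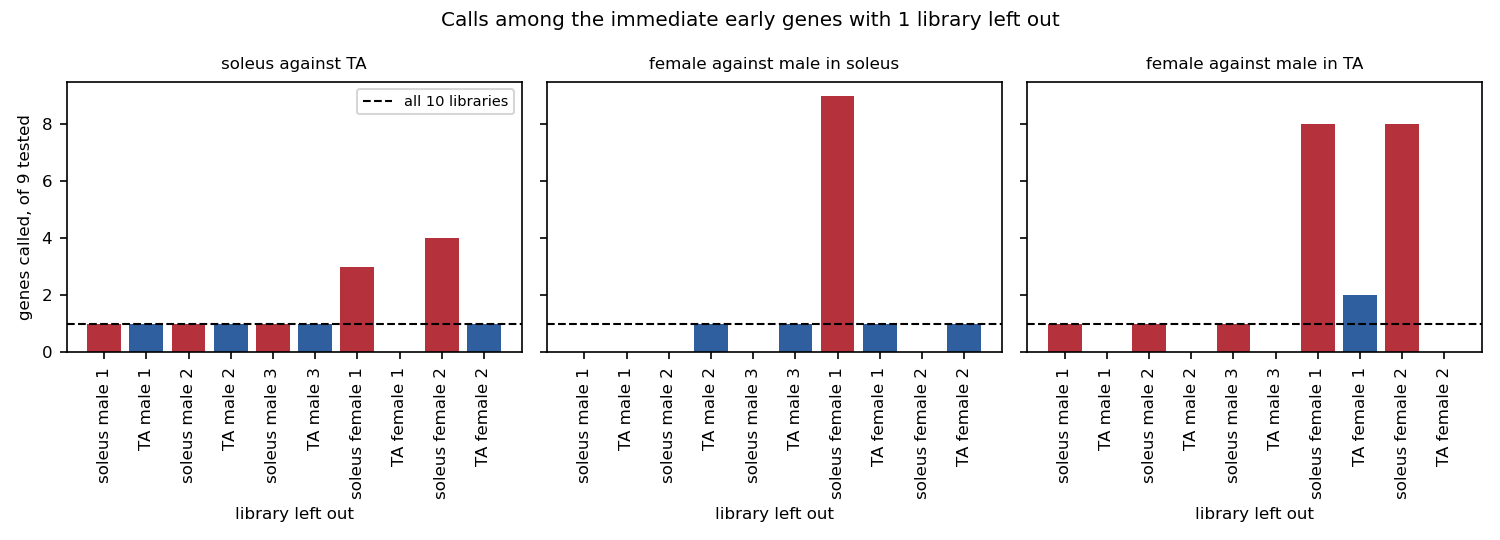
Number of the 9 tested members called by edgeR when each library in turn was left out (bars), for 3 comparisons, with the count from all 10 libraries as a dashed line. In soleus the count between the sexes ran from 0 to 9 and in TA from 0 to 8.

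The members moved together across the libraries. Over the 36 pairs of the 9 tested members, Pearson's r of log2 CPM ran from 0.570 to 0.974 with a median of 0.890. These values describe 10 libraries from 5 mice and are carried by the 3 high libraries that all the pairs share. The median SD of the 9 was 1.54 on the log2 scale, against 0.48 for all genes tested. That comparison is background alone, since 5 of the 9 reached the level needed for testing in 0 or 1 male library. A wide spread was built into their selection. Jun, Ier2, Btg2 and Junb, which reached it in all 6 male libraries, had SDs of 0.93, 1.36, 1.54 and 1.90.

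The genes outside the list whose profile was most like that of the members were found by r with the mean standardised profile over the 10 libraries, among 4205 genes. They were Socs3 (r = 0.986), Nfil3 (0.978), Nfkbia (0.976), Trib1 (0.974) and Tnfaip6 (0.969). With the 2 libraries farthest from the median left out, r was 0.968 for Socs3 and 0.935 to 0.970 for the other 4. Those left out were soleus female 2 and TA female 2, and TA female 1, which stayed in, had a mean standardised level of 1.08 against -0.80 to -0.31 in the other 7 kept. Socs3, a feedback inhibitor of cytokine receptors, had 1.11, 6.87 and 7.63 CPM in the male soleus libraries, 9.64 in soleus female 1 and 923 in soleus female 2. Its TA levels were 5.32, 4.52 and 11.9 CPM in the males, 238 in female 1 and 757 in female 2. As for Fos, soleus female 1 was with the males, and Socs3 was not called between the sexes (edgeR adjusted p = 0.0596 in soleus and 0.0731 in TA).

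**Figure D4:**
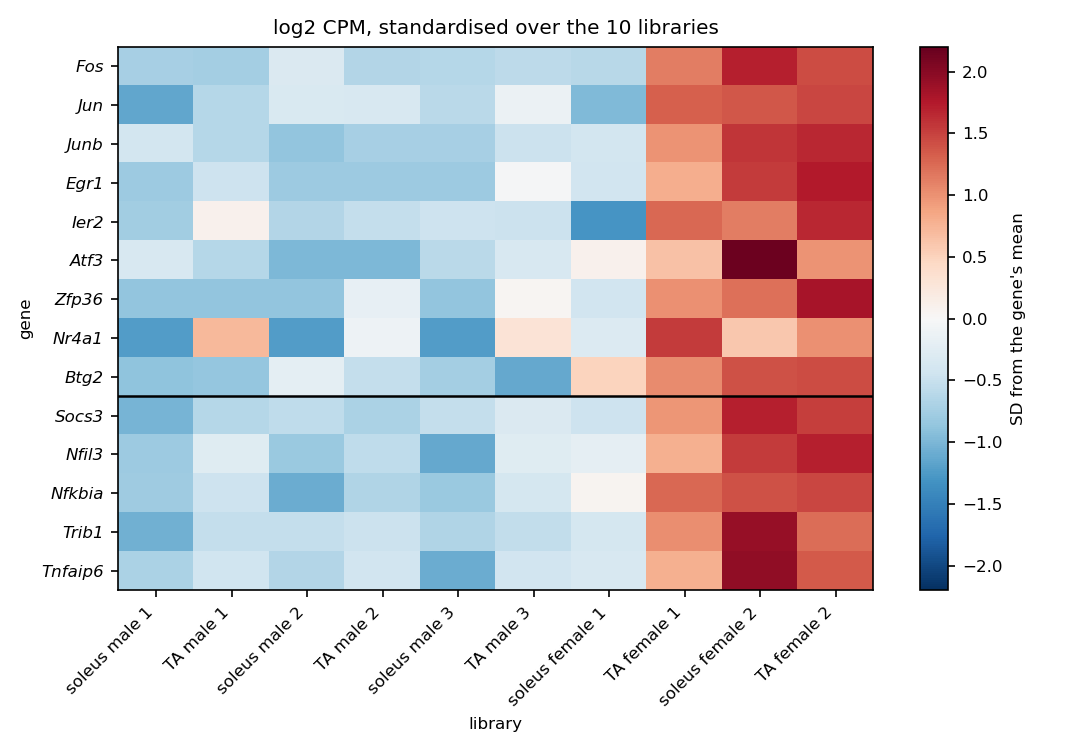
Standardised log2 CPM of the members and of the 5 genes with the most similar profile, by library; colour gives SDs from the mean of each gene. TA female 1, soleus female 2 and TA female 2 are high in nearly every row.

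Of 94 other genes of the pathway in 8 lists, 51 were tested. Between muscles 3 were higher and 5 lower in soleus, with a median log2 change of -0.06 against 0.01 over all genes; 22.0% of all genes were called. In female against male soleus 1 was higher, and in TA 2 were higher, where 0.547% and 0.645% of all genes were called. The list medians were 0.93 and 0.97, against 0.02 over all genes in each. Nothing is read from those medians. Of the genes tested, Cxcl1, Maff, Dusp5 and Csrnp1 reached the 11.2 CPM needed for testing in no male library. The lists were also chosen with earlier results of these data known. None was called lower in females in either muscle.

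Among relatives of the members themselves, the AP-1 list had 4 of 10 genes tested and 0 called in any comparison by edgeR. At an unadjusted p below 0.05 in edgeR there was 1 in soleus and 2 in TA between the sexes, and DESeq2 called 1 in each. Of all 5115 genes, 845 in soleus and 596 in TA had such a p. DESeq2 called 87 genes higher and 36 lower in female soleus, and 38 higher and 41 lower in female TA. Fosl2, a Fos relative, had 12.4 to 29.8 CPM in the male libraries, 49.6 and 57.4 in soleus and TA of female 1, and 88.4 and 157 in those of female 2. None of the 5 EGR and NR4A relatives had enough counts to be tested: Nr4a3 had 10.2 CPM in TA female 1 and 11.1 in TA female 2, and at most 3.24 elsewhere. Tob1 and Tob2, relatives of Btg2, fell in soleus by 1.66 (SE 0.22) and 0.79 (SE 0.19) on the log2 scale (edgeR adjusted p = 0.000153 and 0.00996).

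Of 14 other induced transcription factors 9 were tested. Cebpb rose in female TA (log2 change 1.38, SE 0.26, edgeR adjusted p = 0.0395), and Cebpd, Bhlhe40 and Klf2 fell in soleus against TA, by 1.07, 0.95 and 0.78 on the log2 scale. Of 21 feedback regulators 15 were tested. Gadd45g rose in female soleus (3.65, SE 0.53, edgeR adjusted p = 0.0163) and Sik1 in female TA (2.44, SE 0.34, edgeR adjusted p = 0.0128). Gadd45g, a stress sensor, had 24.7 to 42.0 CPM in male soleus, 153 in soleus female 1 and 647 in soleus female 2.

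The kinases and transcription factors that act upstream did not pass the test: of 18 genes in the SRF and CREB list 9 were tested and 0 were called in any of the 4 comparisons by edgeR or DESeq2. At an unadjusted p below 0.05 in edgeR there were 3 between muscles and 1 between the sexes in soleus, against 1725 and 845 of all 5115 genes. Their median log2 change was -0.18 between muscles, -0.11 between the sexes in soleus and -0.16 in TA. Of 6 secreted factors 2 were tested and edgeR called 0. In soleus both had an unadjusted p below 0.05 in edgeR between the sexes, and DESeq2 called 1. Of these, Cxcl1 reached the level needed for testing in no male library. Over all genes, DESeq2 called 87 higher and 36 lower in female soleus. The chemokine Cxcl1 had 236 CPM in soleus female 2, 50.1 in TA female 2 and 21.7 in TA female 1, and 0 to 5.54 in the other libraries. In the heat shock list, Hspa1a, Hspa1b and Bag3 rose in soleus against TA, by 4.08 (SE 0.81), 3.13 (0.70) and 1.03 (0.15) on the log2 scale. Hspa1a had its highest level, 383 CPM, in soleus female 2.

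Markers of other cell types also differed between libraries, and not all of their sums followed the split seen in the immediate early genes. Summed over 4 neutrophil genes, levels were 0 to 2.54 CPM in the male libraries, 5.51 and 6.38 in soleus and TA of female 1, and 26.0 and 109 in those of female 2. S100a8 alone made 21.8 and 96.9 CPM of the sums in female 2. S100a9, Ly6g and Mpo were each at most 6.68 CPM in any library. The erythroid sum, over 5 globin and haem genes, was 6087 to 38023 CPM in the males and 271 to 4882 in the females. Macrophage markers were lowest in soleus female 2, at 126 CPM, and 248 to 417 in TA of females. Tenocyte markers were 547 to 751 CPM in female TA against 144 to 314 in male TA, and 253 in soleus female 2 against 783 to 1067 in the other soleus libraries. Thbs4 and Fmod held the largest parts of these sums. In TA, Tnmd overlapped between the sexes, at 1.11 to 37.0 CPM in females and 4.32 to 13.8 in males. Each other gene of that list lay higher in both female TA libraries. Adipocyte markers were 760 to 1956 CPM in female TA against 2883 to 3629 in male TA, of which Car3 made 757 to 1948 and 2879 to 3627. Adipoq, Cidea and Plin1 were each at most 3.83 CPM in TA and overlapped between the sexes, so the difference is that of Car3. Satellite cell markers were 62.8 to 139 CPM in males and 108 to 236 in females, of which Sdc4, called between the sexes in soleus, made 23.7 to 68.7 and 57.4 to 167; Pax7 and Cdh15 overlapped between the sexes. Endothelial markers were 260 to 313 CPM in soleus and 378 to 858 in TA. Of 6 such genes 3 were tested, and Cdh5, Kdr and Flt1 were called lower in soleus. Smooth muscle and pericyte markers were 416 to 607 CPM in soleus and 650 to 1104 in TA. Of 5 such genes 3 were tested, and Notch3 and Rgs5 were called lower in soleus. Between muscles 22.0% of all genes were called. Of the Schwann cell markers, Sox10 was at 0 in every library. The part of these cell types in the levels of the immediate early genes was not tested.

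**Figure D5:**
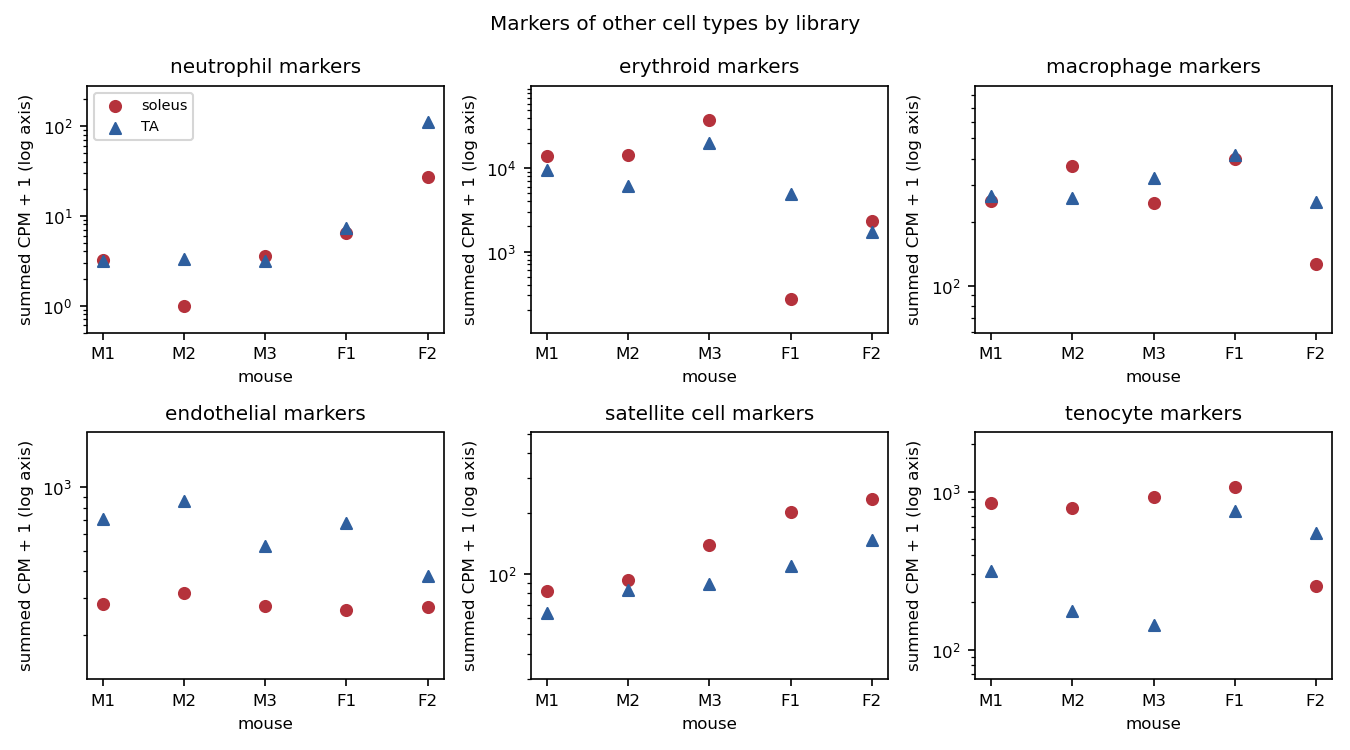
Summed CPM plus 1 of marker lists of other cell types, on log axes, by mouse, for soleus and TA. The neutrophil sum, which is mostly S100a8 in female 2, is highest in TA female 2. The erythroid sum is lower in the females than in the males.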

How the data were processed

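The deposited files, which have no header, list a count per Ensembl transcript in each library; the values are whole numbers whose sum differs between libraries (726414 to 961844), as raw counts do. Per the labels' protocols, a fibrous-tissue kit gave the RNA, a Tag-Seq preparation was used and cDNA libraries were made with a stranded SMART-Seq kit. Per the submitters' processing notes, the tools were bcl2fastq, Trimmomatic 0.32 and FastQC, and the build GRCm38.p4. Which aligner and counter were used is not given in the sources used here. Of 40414 transcripts 40359 matched GENCODE M21 (GRCm38) and were summed to genes.

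Tests used edgeR 4.0.16 in R 4.3.3: filterByExpr by the 4 groups of muscle and sex left 5115 genes, scaled by TMM, with quasi-likelihood tests and Benjamini-Hochberg adjustment over all of them (called: adjusted p under 0.05). SE is the log2 change divided by the square root of F. Between muscles sex was a covariate; the other comparisons used 4 group means. Counting intervals (95%) and floors (3 counts) cover counting error only, and p-values measure the spread between these samples. Soleus and TA share mice by the animal number: in males, deviations of libraries from 1 mouse correlated at 0.183 to 0.239, and those of different mice at -0.156 to -0.0705. With 2 female mice, centring forces equal and opposite values (0.285 and -0.285), which are no separate observation. Profiles used log2 CPM with a prior count of 2, in genes averaging at least 10 CPM. Alternatives were DESeq2 1.42.0, its size factors, no filter, no Gm20594 and Cep295 (which, together, held much of the counts), coding transcripts, the replicate block and leaving out each library; the male libraries alone were added after seeing the data. Promoters came from RefSeq GRCm38.p6; 8 of 10 members matched. Every member is described. Outside them, genes named were those called in the lists, the most abundant of each list, and the 5 most similar profiles. The members and lists were chosen with earlier results of these data known. The statistics were tested on simulated counts, drawn independently for each library. Those had no shared mouse and no library set apart, so nothing about these data is read from them.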

Additional observations from a re-analysis of the deposited data

Results flagged for a closer look

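In soleus, 4 members had 1 library far from the other 4, judged by its gap to the nearest library over the whole range on the log2(CPM + 2) scale, where the limit for 5 libraries is 0.71. It was soleus female 2 each time. Fos had a ratio of 0.816, with 1157 CPM there and 12.4 in the next library. Egr1 had 0.811 (30.2 against 1.38 CPM), Junb 0.796 (629 against 51.0 CPM) and Zfp36 0.752 (14.6 against 1.38 CPM). Chance flags about 1 in 20 groups. No member was flagged in TA.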

How the results depend on the processing

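No member called with all libraries changed direction under any alternative run. Between muscles 1 of 9 members was called: 3 without the filter, 0 to 4 with 1 library left out, and 0 in males alone. With the replicate block, which pairs the muscles of a mouse, 1207 genes and 1 member were called, against 1126 and 1; no call of a member changed. In soleus between the sexes 28 genes and 1 member were called, against 449 and 9 without the filter, 123 and 6 by DESeq2, and 1 to 1022 and 0 to 9 with 1 library left out. In TA 33 genes and 1 member were called, against 240 and 8 without the filter, 79 and 4 by DESeq2, and 1 to 162 and 0 to 8 with 1 library left out. For the interaction, 0 genes were called, against 58 without the filter, 6 by DESeq2, and 0 to 79 genes and 0 to 1 members with 1 library left out. Leaving out a female library leaves 1 in its group, assumed to vary like the others. The cause of these shifts was not tested. Among values for single members, 177 kept their side of the threshold and 25 newly passed it in settings other than leaving out a library; with 1 library left out 321 kept it, 29 newly passed and 10 no longer passed. Low counts limit Fosb, Nr4a1, Zfp36, Egr1 and Atf3.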
